A study of Mus musculus with 4 samples.

Results

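In mouse liver, the glucocorticoid receptor (GR) was called over 247 regions of 1500 bp or more, many of them at genes of secreted liver proteins and of hepatic metabolism. The widest ran over *Errfi1*, *Alb*, *Alas1* and *Cyp2e1*, and 21 of the 247 contained a protein-coding gene from its start to its end. The regions were selected on their width: called GR peaks from either replicate were joined wherever they overlapped by 1 bp or more, and joined regions of at least 1500 bp were kept. They made up 2.81% of the 8795 merged GR regions and held 778775 of 4835773 bp, which is 16.1% of all bases under GR peaks. Their widths ran from 1502 to 20609 bp with a median of 2188 bp, while the other 8548 GR regions had a median of 406 bp. Of the 247, 99 were under 2000 bp, 104 measured from 2000 bp to below 4000 bp and 44 measured 4000 bp or more. The 9 widest all passed 10 kb.

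GR and the E2A proteins were mapped by chromatin immunoprecipitation and sequencing (ChIP-Seq) in whole livers of untreated wild-type (E47+/+) male C57BL/6J mice taken at ZT10, that is 10 h after lights on. The animals were 10 to 16 weeks old and were on regular chow. There were 2 biological replicates for GR and 2 for E2A, and E2A was assayed in the same livers as GR. Replicate numbers follow the sample titles. For GR the names of the peak tables carry the opposite numbers, so a shared number does not tie a GR sample to an E2A sample. The free-text description of E2A replicate 2 names an E47-/- liver and a GR ChIP, whereas its title, antibody and genotype fields name E2A and wild type, so the main E2A values are given for each replicate on its own. The sample labels call these livers untreated, while a description among the study's supplementary files calls them dexamethasone-treated, and the labels were followed.

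GR is a ligand-activated nuclear receptor that enters the nucleus when bound by corticosterone in mice and binds glucocorticoid response elements (GREs), in which inverted half-sites are set apart by a short spacer. E2A, encoded by *Tcf3*, gives rise to E12 and E47, basic helix-loop-helix factors that bind E-Boxes. In hepatocytes GR takes part in the control of gluconeogenesis, amino acid breakdown and lipid handling, and hepatocytes produce albumin, clotting factors and apolipoproteins at very high rates. A ChIP-Seq peak is a stretch of genome where fragments pile up above what the caller expects. A broad region in this sense is a long run of called bases, and it need not be bound at every base.

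The exact GRE core GNACANNNTGTNC, in which N is any base, occurred 24 times in the 247 regions, once in each of 24 regions. Examples are shown because they place a GR recognition sequence inside a very wide region, or at or near a gene of metabolism or transcriptional control. Each line is the forward strand of mm10, with the core in capitals and 8 bases on either side.
*Errfi1*: tttaatttGAACATTATGTCCcttggatt
*Alas1*: acagtcgaGAACACAGTGTTCatggacaa
*Fgb*: aaacatctGAACATAATGTTCtaggagtt
*Klf9*: ggtaaaaaGGACAAACTGTTCcacaacaa
*Ppara*: gactcgggGAACAAGCTGTGCgatctaga
*Mir8114* and *Glul*: ttggaggaGAACAATATGTTCcctctcca
*Ass1*: aggactcaGCACACTATGTTCattaagag
The *Errfi1* core at chr4:150865821-150865833 lay 11908 bp downstream of the gene start and was inside peaks of all 4 samples. The *Alas1* core at chr9:106235615-106235627, 13033 bp into the gene, was inside peaks of both GR replicates and of E2A replicate 2. The *Klf9* core at chr19:23135093-23135105, at -6127 bp from the gene start, had the same 3 samples over it. The *Fgb* core at chr3:83044450-83044462 was inside a peak of GR replicate 2 alone. The *Ppara* core at chr15:85735056-85735068 (79 bp after the start), the core at chr1:153901626-153901638 in the region annotated to *Mir8114* and *Glul* and the *Ass1* core at chr2:31459588-31459600 were inside peaks of both GR replicates and of no E2A sample. The *Ass1* core lay at -10613 bp from the gene start, in a region that did not touch *Ass1* and overlapped another protein-coding gene. Of the 24 cores, 5 were the full palindrome of GAACA and TGTTC, 15 lay in a peak of GR replicate 1 and 10 in an E2A peak.

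A GRE core was present in 9.72% of the broad regions (95% Wilson interval 6.62 to 14.1%). Among 261 flanks, which are stretches of the same lengths starting 500 bp beyond a region's edge and free of GR peaks, 2.68% held one (1.31 to 5.43%). In the other GR regions 4.82% held one. Those regions are shorter, which affects the share, so the density is given as well. It was 0.0308 cores per kb in broad regions, 0.00911 in flanks and 0.103 in the other GR regions. Against the other GR regions its direction depended on gene starts. Regions covering a protein-coding start had 0.0223 per kb if broad and 0.0117 if not. Those covering none had 0.04 and 0.154. Within the broad regions, bases under peaks of GR replicate 1 had 0.0644 cores per kb (15 cores in 232848 bp) and the remaining bases 0.0165 (9 cores in 545927 bp). With 1 mismatch allowed outside the spacer the densities were 0.437, 0.415 and 0.657 per kb in broad regions, flanks and other GR regions, so the excess over flanks was in the exact core. The E-Box CANNTG, which reads the same on both strands and matches by chance very often, was found 5.34 times per kb in broad regions, 5.79 in flanks and 4.38 in other GR regions. Its CACGTG form reached 0.163, 0.115 and 0.276 per kb. Both strands were searched for every motif, and a match is only a match of letters.

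The letters for C/EBP (TTNCNNAA), a factor of hepatocyte identity, occurred 2.47 times per kb in broad regions, 2.51 in flanks and 1.97 in other GR regions. Those for FOX factors (TGTTTAC) gave 0.119, 0.111 and 0.163 per kb, and those for HNF4 (CAAAGTCCA) 0.0205, 0.0143 and 0.0486. The gaps to the other GR regions changed with gene starts. In regions covering a protein-coding start, C/EBP letters had 2.43 per kb if broad and 0.983 if not. FOX letters had 0.126 and 0.0667 there, and HNF4 letters 0.0173 and 0.0179. In regions covering none, the values were 2.5 and 2.52, 0.112 and 0.216, and 0.024 and 0.0657. CAGCTG and CAGGTG, E-Box forms contained in CANNTG, gave 0.58 and 0.824 per kb in broad regions against 0.496 and 0.878 in flanks. The base composition differed as well. Broad regions had 49.0% G+C and 21.6 CpG per kb, the other GR regions 57.6% and 54.9, and flanks 44.9% and 10.5. Repeat-masked bases made up 18.3% of the broad regions, 31.7% of flanks and 10.3% of the other GR regions. The part of composition in the motif densities was not tested.

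The upstream stretch of 3 genes whose start lies in a broad region is shown, since called peaks covered it and the genes stand for different widths and replicate patterns. The 100 bases before the RefSeq gene start are given in the sense of the gene (RefSeq, GRCm38.p6, which is mm10), with capitals for matches to TTNCNNAA, CANNTG or CCAAT on either strand.
*Alb*: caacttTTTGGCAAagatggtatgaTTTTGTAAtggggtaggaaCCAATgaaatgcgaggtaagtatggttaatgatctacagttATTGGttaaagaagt
*Pck1*: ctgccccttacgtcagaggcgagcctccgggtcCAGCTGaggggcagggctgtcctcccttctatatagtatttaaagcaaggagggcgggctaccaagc
*Fgb*: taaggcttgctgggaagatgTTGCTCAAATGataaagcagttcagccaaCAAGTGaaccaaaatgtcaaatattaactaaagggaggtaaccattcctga
The windows are chr5:90460770-90460869 for *Alb* (plus strand), chr2:173152973-173153072 for *Pck1* (plus strand) and chr3:83049864-83049963 for *Fgb* (minus strand). All 100 bases at *Alb* and at *Pck1* were inside peaks of all 4 samples. At *Fgb* all 100 were in peaks of both GR replicates and of E2A replicate 2, and 0 in peaks of E2A replicate 1. The first capital run of *Fgb* is an overlap of TTNCNNAA and CANNTG. Of 183 genes that name a broad region, 134 had a RefSeq promoter, and 100 promoters belonged to genes whose start a broad region covered. In the same 100-base window, 21 of these 100 held TTNCNNAA against 14.9% of all 32851 RefSeq promoters, 30 held CCAAT against 18.9%, 16 held TATAAA on the sense strand against 3.8%, and 23 held CANNTG against 34.4%. The GRE core was in 0 of the 100 and in 0.0944% of all promoters.

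**Figure D1:**
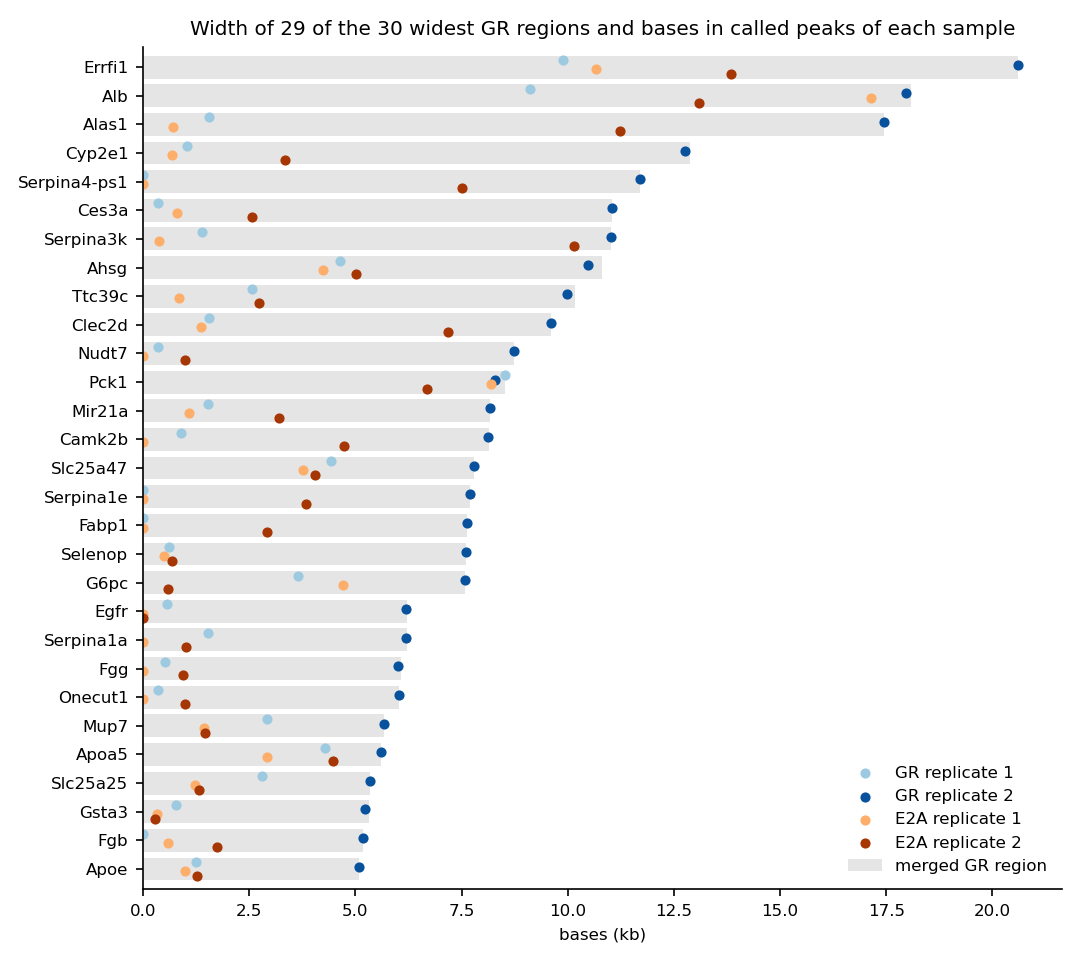
Width of 29 of the 30 widest merged GR regions (grey bars, kb) and the bases in called peaks of each of the 4 samples within them (points, kb), 1 row per region named by its nearest gene. GR replicate 2 reaches the end of nearly every bar, GR replicate 1 does so at *Pck1* alone, and E2A replicate 2 lies beyond E2A replicate 1 in most rows.

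The widest region, 20609 bp at chr4:150852261-150872869, began 1658 bp before *Errfi1*, contained the whole gene and ended beyond it. *Errfi1* encodes a feedback inhibitor of the EGF receptor. GR replicate 1 peaks covered 9895 bp of the region in 7 pieces and GR replicate 2 covered all of it as 1 peak. E2A peaks covered 10673 bp in replicate 1 and 13857 bp in replicate 2, so 76.1% of the bases lay under E2A.

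The region at *Alb*, encoding serum albumin, was 18073 bp at chr5:90460570-90478642 and also contained its gene. Peaks covered 9121 bp in GR replicate 1, 17971 bp in GR replicate 2, 17151 bp in E2A replicate 1 and 13103 bp in E2A replicate 2. GR replicate 2 and both E2A replicates were called along most of the transcribed unit, GR replicate 1 in 7 pieces, and E2A peaks reached 95.4% of the bases. *Alb* had another broad region of 2020 bp, at -9338 bp from the gene start, that rested on GR replicate 1 (2020 bp, against 443 bp in replicate 2) and held no E2A peak.

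*Alas1* encodes the enzyme of the committed step of heme synthesis, and its region of 17441 bp covered 96.3% of the gene. The 4 samples were far apart there: GR covered 1564 and 17441 bp, and E2A 715 and 11232 bp, in replicates 1 and 2. *Cyp2e1*, a cytochrome P450 that oxidises ethanol and small solvents, showed the same split over 12873 bp. GR peaks covered 1024 and 12764 bp and E2A peaks 680 and 3352 bp.

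*Serpina4-ps1*, a pseudogene in the serpin cluster on chromosome 12, lay in a region of 11708 bp that was called in GR replicate 2 and E2A replicate 2 only, the latter on 7503 bp. *Serpina3k*, a secreted protease inhibitor, lay in a region of 11019 bp on which E2A replicate 2 had a single peak of 10155 bp, the longest E2A peak of either replicate, while E2A replicate 1 covered 365 bp. *Ces3a*, a carboxylesterase, was contained whole in 11045 bp, with 346 and 11045 bp of GR and 799 and 2560 bp of E2A. At *Ahsg*, which encodes fetuin-A, the 4 samples were closer to each other: 4631 and 10468 bp of GR, 4237 and 5024 bp of E2A, in 10802 bp.

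**Figure D2:**
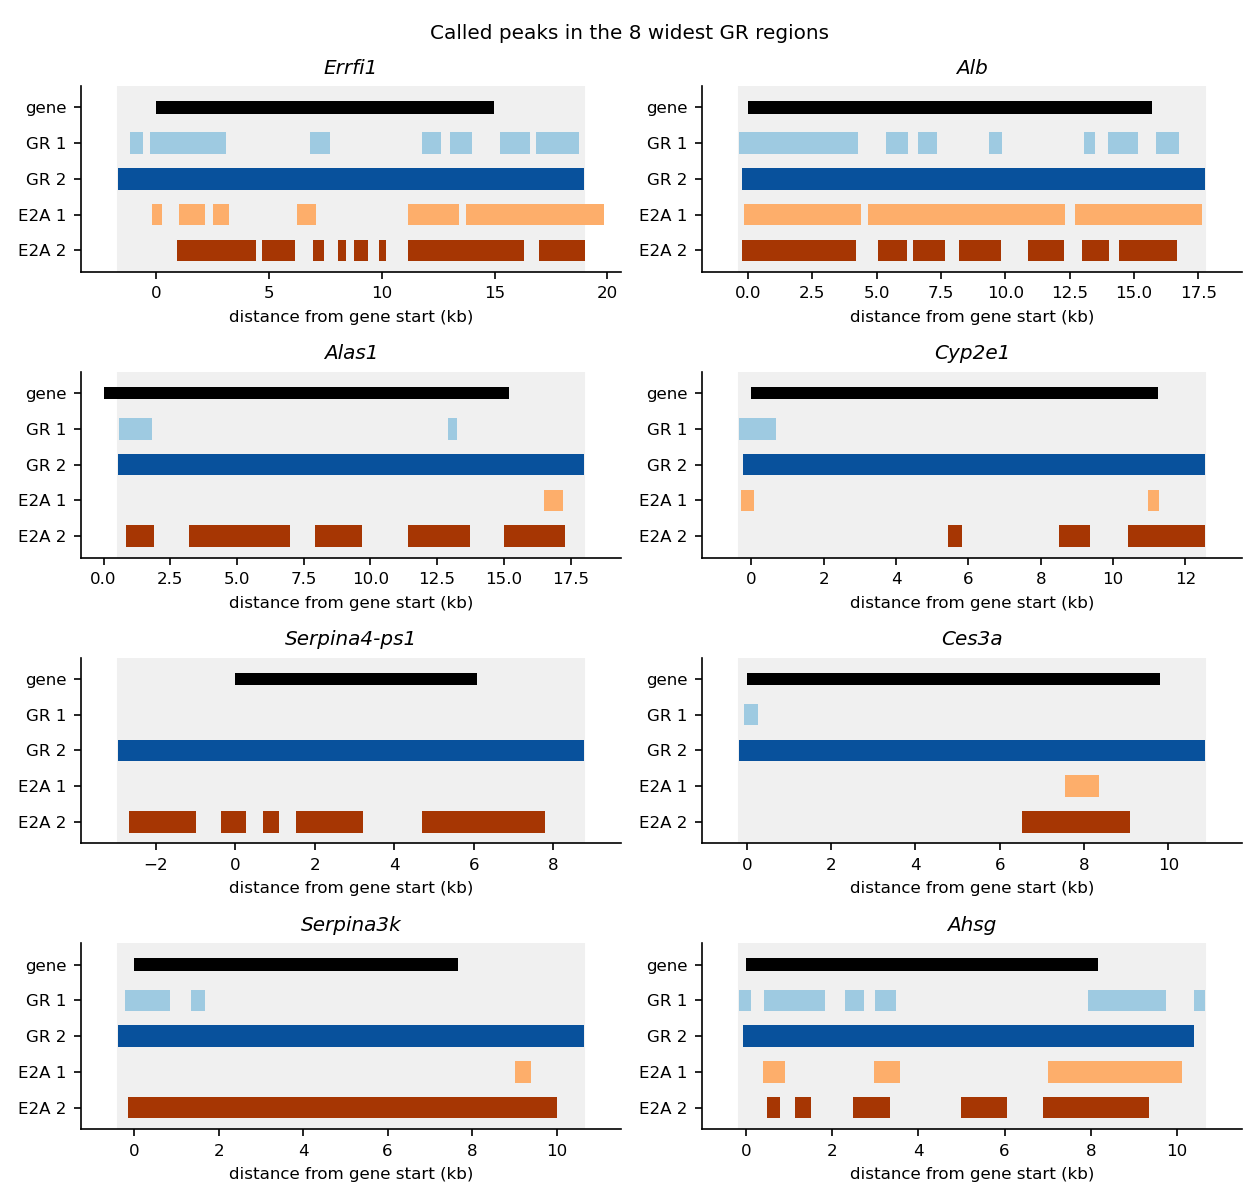
Called peaks of the 4 samples in the 8 widest regions, drawn as bars along the distance from the gene start in the direction of transcription (kb), with the merged GR region shaded grey and the gene in black. GR replicate 2 is 1 long bar in each panel, GR replicate 1 has 0 to 7 shorter pieces, and E2A replicate 2 has a single long bar at *Serpina3k*.

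*Pck1*, which encodes the cytosolic PEPCK of gluconeogenesis, was the one region among the 30 widest that both GR replicates covered almost completely. It measured 8532 bp, of which GR covered 8532 and 8284 bp and E2A 8188 and 6685 bp. *G6pc*, the catalytic subunit of glucose-6-phosphatase, had 3646 and 7587 bp of GR and 4718 and 580 bp of E2A in 7587 bp, so here E2A replicate 1 was the more extended. At *Egfr* the region of 6218 bp held no E2A peak in either replicate, the only case among the 30 widest, and GR replicate 1 covered 561 bp of it.

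Other regions among the 30 widest were at *Ttc39c*, *Clec2d*, *Nudt7*, *Mir21a*, *Camk2b*, *Slc25a47*, *Serpina1e*, *Fabp1*, *Selenop*, *Serpina1a*, *Fgg*, *Onecut1*, *Mup7*, *Apoa5*, *Slc25a25*, *Gsta3*, *Fgb* and *Apoe*, from 10162 bp at *Ttc39c* to 5076 bp at *Apoe*. *Fabp1* (liver fatty acid binding protein, 7627 bp) and *Serpina1e* (an alpha-1-antitrypsin gene, 7705 bp) had no peak of GR replicate 1, and neither had the region over the end of *Fgb* (fibrinogen beta chain, 5178 bp). The deposited symbol *Serpina1a* for the region of 6212 bp points to a neighbour, since in the GENCODE annotation that stretch overlaps *Serpina1c*, a near-identical copy. Such paralogs, with the major urinary protein (*Mup*) genes, share sequence, and only uniquely mapped reads had been kept. Some regions in these families overlap a GENCODE gene other than the deposited symbol, so the gene named for a region there is uncertain.

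**Figure D3:**
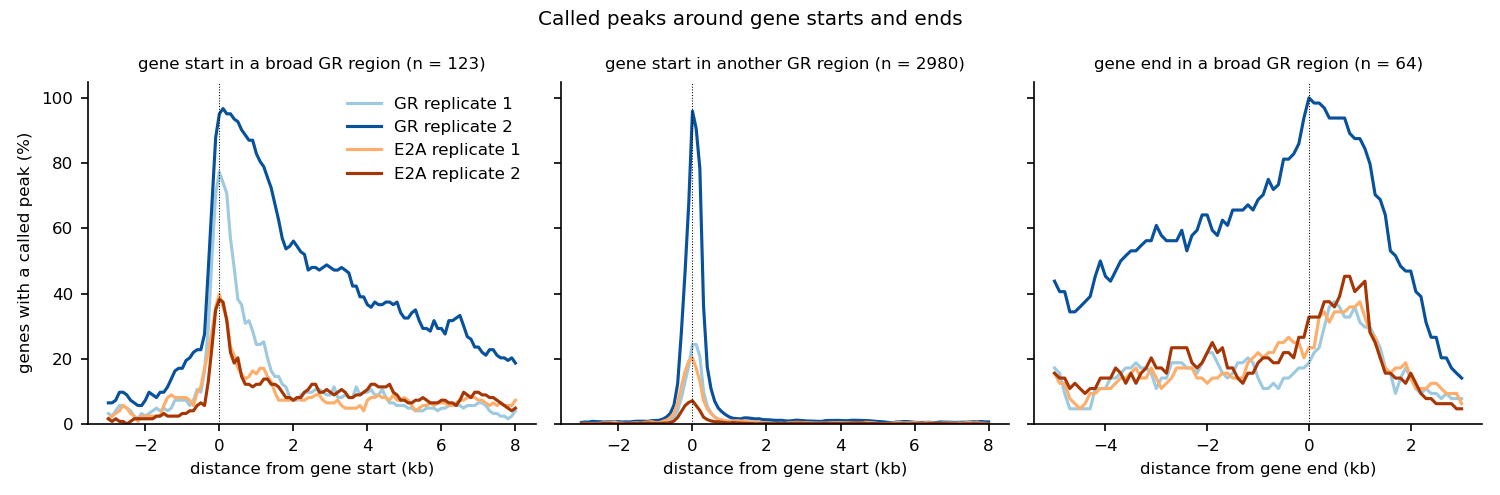
Share of protein-coding genes (%, vertical axis) with a called peak at each distance from the gene start or end (kb, in the direction of transcription, 100-bp steps) for the 4 samples. The left panel has 123 genes whose start lay in a broad GR region, the middle panel 2980 genes whose start lay in another GR region, and the right panel 64 genes whose end lay in a broad GR region. The downstream reach of GR peaks in the left panel, and its lack in the middle panel, follow from the split by region width, while E2A peaks at the start are more frequent in the left panel. Past gene ends, the peaks of GR replicate 1 and of both E2A replicates reach their highest share.

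The broad regions took in gene starts, bodies and ends. A protein-coding gene start was inside 112 of them, 45.3% (39.3 to 51.6%), against 32.4% of all merged GR regions. A gene end was inside 59 of them, 23.9% (19.0 to 29.6%), whereas 0.889% of the other GR regions reached one. Whole genes lay in 21 regions, 8.5% (5.63 to 12.6%), against 0.262% of all GR regions. Among the 44 regions of 4000 bp or more the count was 16, including *Errfi1*, *Alb*, *Cyp2e1*, *Ces3a*, *Serpina3k*, *Ahsg*, *Clec2d*, *Pck1*, *Fabp1*, *Mup7*, *Apoa5*, *Apoe*, *Cebpa*, *Hamp* and *Apoa1*. Width itself makes such containment more likely, so these shares are a description. The 41 peaks of 1500 bp or more of GR replicate 1 contained a whole gene in 4.88% and a gene start in 51.2%. For the 26 stretches of that length called in both GR replicates the shares were 7.69% and 53.8%.

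The regions reached mostly in the direction of transcription. In 114 regions that covered the start of their own nearest gene, the part upstream of the start had a median of 314 bp (quartiles 208 and 598 bp) and the part downstream 1963 bp (quartiles 1418 and 3863 bp). The region reached farther downstream in 102 of the 114 and farther upstream in 12. The GR replicates differed in this reach around the 123 protein-coding starts inside broad regions. GR replicate 1 had a peak at 7.32% of them 1000 bp upstream, 24.4% 1000 bp downstream and 7.32% 2000 bp downstream. For GR replicate 2 the shares were 17.1%, 82.9% and 56.1%. Gene bodies took 70.6% of the bases of broad regions, against 62.6% in the other GR regions and 37.2% in flanks. Exons of protein-coding genes took 17.7%, 25.6% and 5.67% and introns 52.9%, 37.0% and 31.6%, in the same order. The gene-body share was 62.9% without GR replicate 2 and 64.3% on bases called in both GR replicates, near that of the other GR regions.

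E2A peaks, which had no part in choosing the regions, were spread over the same parts of the genes. At the starts of the 123 genes, 39.8% had a peak of E2A replicate 1 and 38.2% a peak of replicate 2, against 20.3% and 7.15% of 2980 genes whose start lay in another GR region. At 2000 bp downstream of the start 7.32% still had a peak in each E2A replicate, against 0.336% and 0.168%. The comparison genes lie in narrower GR regions, so the distance that GR peaks reach from the start was set by the width rule and is not compared. At 2000 bp downstream GR replicate 2 had a peak at 56.1% of the 123 genes and at 1.34% of the 2980. The E2A shares at that distance cannot be told apart from this split by width and are a description.

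Around gene ends, calls of all samples but GR replicate 2 were most frequent beyond the annotated end. Among 64 genes whose end was in a broad region, the share with a peak was highest 500 bp past the end for GR replicate 1 (37.5%), 1000 bp past it for E2A replicate 1 (37.5%) and 700 bp past it for E2A replicate 2 (45.3%). At the end itself the shares were 18.8%, 23.4% and 32.8%. Counted over bases, E2A peaks of either replicate covered 50.1% of what lay downstream of the end of the nearest gene, 46.2% of the last 1 kb of the gene, 32.9% of its middle, 35.6% of its first 1 kb and 33.7% of what lay upstream. The highest share was downstream in E2A replicate 2 (38.2%), while in E2A replicate 1 it was in the last 1 kb (28.4%, with 25.2% downstream). GR replicate 1 had another order, with 50.3% of the first 1 kb, 44.6% upstream and 28.4% downstream. These base counts include 47 regions that did not touch their nearest gene, so upstream and downstream bases can lie far from it. Among the downstream ones were regions next to *Gm21190*, which had peaks of E2A replicate 2 and none of E2A replicate 1. The shares without such regions were not computed.

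By the deposited annotation of the widest GR peak in each region, 149 of 247 (60.3%) were promoters, 37 (15.0%) 3' UTRs, 26 (10.5%) distal intergenic, 16 introns, 15 exons and 4 downstream. In the other GR regions 3' UTRs made up 1.65% and introns 23.2%. A promoter in this annotation names only where the nearest start is, and says nothing of how far the region runs. Of 47 regions that did not touch the GENCODE body of their nearest gene, 14 overlapped another protein-coding gene and 33 none. Among the latter were regions upstream of *Klf9* (2990 bp), *Rxra* (2175 and 1640 bp) and *G6pc* (1776 bp), and one of 4163 bp downstream of *Insr*, named after its values were seen.

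The width came mainly from GR replicate 2. A single peak of 1500 bp or more was present in 222 regions in GR replicate 2 and in 38 in GR replicate 1, with 24 regions having one in both and 11 reaching the limit only by merging. On median, peaks of GR replicate 1 covered 23.3% of a region's bases and those of replicate 2 all of them. Of the 247 regions, 174 (70.4%, 64.5 to 75.8%) had a peak of both GR replicates, against 31.1% of all merged GR regions, 72 had replicate 2 alone and 1 had replicate 1 alone. Wider intervals meet more peaks, and merging needs the peaks of either replicate, so this share is tied to how the regions were chosen. The number of regions fell to 222 from the peaks of GR replicate 2 alone and to 41 from GR replicate 1 alone.

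**Figure D4:**
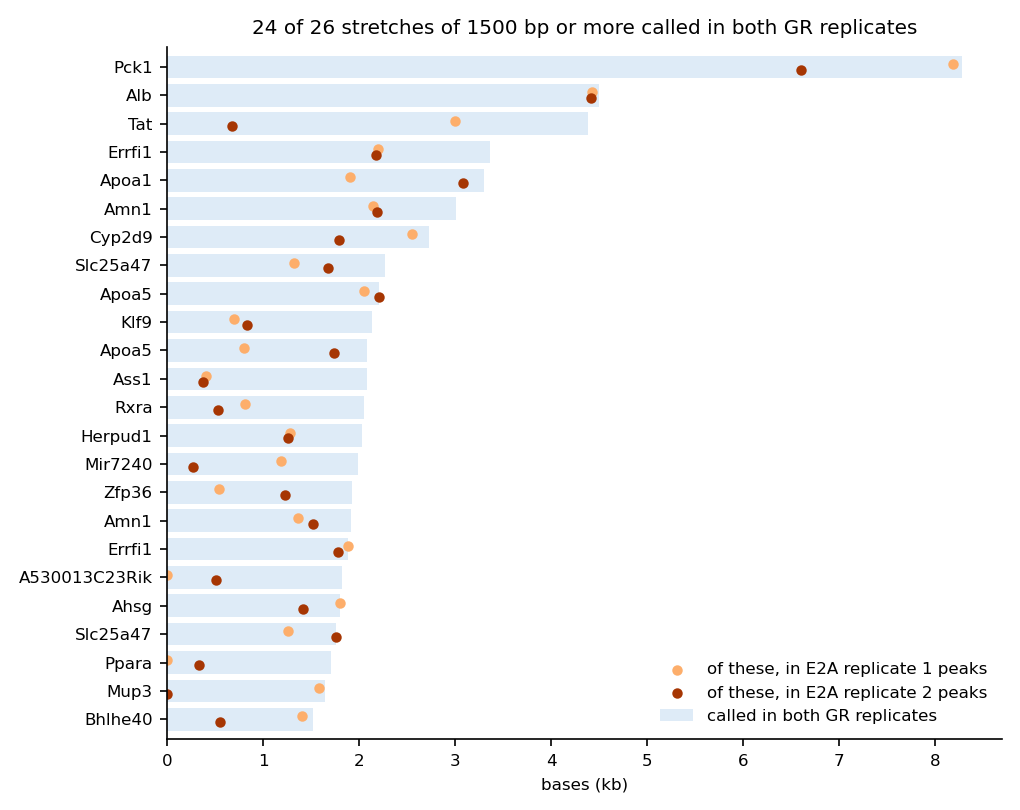
Of the 26 stretches of 1500 bp or more that were called in both GR replicates, 24 are drawn (bars, kb), with the bases in them under peaks of each E2A replicate (points, kb), 1 row per stretch named by the nearest gene. The *Pck1* stretch of 8284 bp is the longest, both E2A points lie near the bar end at *Alb*, and the *Mup3* stretch has the point of E2A replicate 2 at 0.

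Where both replicates are required at each base, 26 stretches of 1500 bp or more remained, in 23 regions and at 22 genes, 67533 bp in all. Among the longest were those at *Pck1* (8284 bp), *Alb* (4494 bp), *Tat* (4389 bp, tyrosine aminotransferase), *Errfi1* (3364 and 1882 bp) and *Apoa1* (3305 bp). Others lay at the glucocorticoid-induced factor gene *Klf9* (2136 bp), the fatty acid sensor gene *Ppara* (1705 bp), the urea cycle gene *Ass1* (2081 bp) and the nuclear receptor gene *Rxra* (2054 bp). *Amn1*, *Herpud1*, *Zfp36*, *Mir7240*, *A530013C23Rik* and *Bhlhe40* were on this list as well, and the first 5 of these were picked out after their values were seen. E2A peaks covered 67.9% of these bases in replicate 1 and 62.1% in replicate 2. Of the 26 stretches, 22 had peaks of both E2A replicates and 1 had none.

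E2A covered the regions in part. An E2A peak shared at least 1 bp with 179 of the 247 regions, 72.5% (66.6 to 77.7%), against 30.7% of all merged GR regions. For E2A replicate 1 the count was 126, 51.0% against 26.7%, and for E2A replicate 2 it was 139, 56.3% against 13.0%. Both E2A replicates were present in 86 regions and neither in 68. A wide interval meets a peak more easily, and the difference was smaller on measures that ask for more than 1 shared bp. The middle base was inside an E2A peak in 28.7% of broad regions (23.5 to 34.7%) and in 24.9% of the other GR regions (24.0 to 25.9%). E2A peaks covered 50% or more of the bases in 26.7% (21.6 to 32.6%) and 23.3% (22.4 to 24.2%).

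By bases the 2 E2A replicates differed. Peaks of E2A replicate 1 covered 20.6% of the bases of broad regions and 19.6% of those of the other GR regions. Peaks of E2A replicate 2 covered 27.0% and 8.38%. The mean over both replicates was 23.8% ± 4.5 (SD, n = 2) in broad regions and 14.0% ± 7.9 (SD, n = 2) in the others. The lower of the broad values, 20.6%, was close to the higher of the other values, 19.6%, so the gap between the means rested on E2A replicate 2. In flanks E2A peaks covered 0.304% and 0.13% of the bases. With 2 samples a group no permutation test can pass a threshold of 0.05, and regions of one liver are not replicates, so no p-value is given. Intervals cover counting error only.

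**Figure D5:**
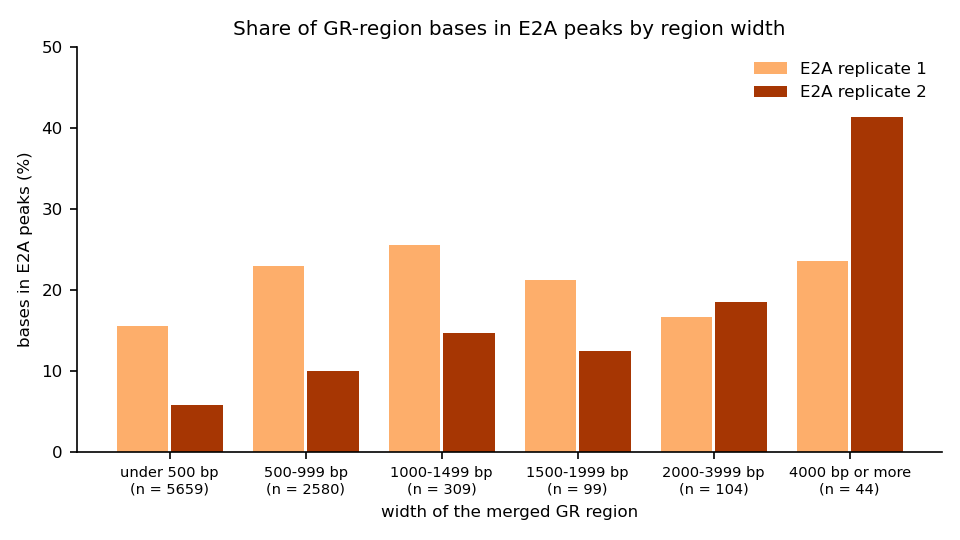
Share of bases of merged GR regions under peaks of E2A replicate 1 (light bars) and replicate 2 (dark bars), in %, for 6 classes of region width, with the number of regions in each class. Replicate 2 goes from 5.78% in regions under 500 bp to 41.3% in those of 4000 bp or more, and replicate 1 stays between 15.5% and 25.5%.

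The replicate difference followed the width of the GR region. From regions under 500 bp to regions of 4000 bp or more, the share of bases under E2A replicate 2 was 5.78, 10.0, 14.7, 12.5, 18.5 and 41.3% in 6 classes. Under E2A replicate 1 it was 15.5, 23.0, 25.5, 21.2, 16.6 and 23.6%. In the 44 widest regions at least 1 E2A peak was present in 43, replicate 1 in 31 and replicate 2 in 42. Long E2A peaks often touched broad GR regions, which a long peak does more easily than a short one: of 40 peaks of 1500 bp or more in E2A replicate 2, 38 (Wilson interval 83.5 to 98.6%) touched one, and of 36 in E2A replicate 1, 24 did (66.7%, 50.3 to 79.8%), 9 touched another GR region and 3 none. Of all E2A peaks, 12.0% in replicate 2 and 4.25% in replicate 1 touched a broad region.

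E2A also followed the support by GR replicate 1. In the 174 regions called in both GR replicates, E2A replicate 1 had a peak in 63.2% (55.8 to 70.0%) and E2A replicate 2 in 60.3% (52.9 to 67.3%). In the 72 regions of GR replicate 2 alone the shares were 20.8% (13.1 to 31.6%) and 45.8% (34.8 to 57.3%), so the difference was the larger for E2A replicate 1. Within the 174 regions, bases under GR replicate 1 peaks were in E2A replicate 1 peaks in 48.5% and in E2A replicate 2 peaks in 39.6%, and bases outside them in 11.1% and 19.8%. Over all 247 regions, Spearman's rho of the share of bases under GR replicate 1 was 0.52 with that under E2A replicate 1 and 0.05 with that under E2A replicate 2, and rho of the width with E2A replicate 2 was 0.36. These are descriptions across regions, which share 4 samples and an interval each. In the 41 peaks of 1500 bp or more of GR replicate 1 taken alone, the mean E2A share over both replicates was 54.6% of bases, against 23.8% in the 247 regions.

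Hepatocyte markers carried broad regions. Of 10 hepatocyte markers with a GR region, 9 had a broad one: *Alb*, *Apoa1*, *Apob*, *Cps1*, *Fga*, *Fgb*, *Serpina1a*, *Tat* and *Ttr*, while *Hnf4a* had a narrower region. No marker of Kupffer, endothelial, stellate or biliary cells, lymphocytes, or red cells and neutrophils had a broad region, and GR regions of any width were next to 3 endothelial markers, 1 biliary marker and 1 lymphocyte marker. Counted by nearest gene, 190 of the 5667 genes with any GR region had a broad one, which is 3.35%. The counts of the markers and of the gene groups that follow stand against this share, and the groups were chosen with the results known. So few markers of other cell types had a GR region that the lack of a broad one among them carries little weight. Their shares of bases under E2A peaks stand against those of all 247 broad regions, which were 37.0% for either replicate, 20.6% for replicate 1 and 27.0% for replicate 2.

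Genes of secreted hepatocyte proteins differed by group. Of 43 genes of plasma carriers and acute phase proteins with a GR region, 16 had a broad one, among them *Ahsg*, *Hamp* (hepcidin, the hormone of iron balance, 4696 bp), *Hp* (haptoglobin, 3834 bp), *Hpx* (hemopexin, in 3 regions up to 1629 bp), *Trf* (transferrin, 3725 bp), *Rbp4* (retinol binding protein, 3642 bp), *Selenop*, *Ttr* and 8 *Mup* genes. The *Mup* genes are counted by deposited symbol, and some of their regions overlap a different *Mup* gene in GENCODE. Of 3 genes of the albumin family 2 shared one region, *Alb* and *Afp*. Serpins had 6 of 17, apolipoproteins 7 of 13 (*Apoa1*, *Apoa2*, *Apoa5*, *Apob*, *Apoc1*, *Apoc3* and *Apoe*) and coagulation factors 3 of 17, which were the fibrinogen chains *Fga*, *Fgb* and *Fgg*. Complement had *C3* alone of 14. Bases under E2A peaks of either replicate were 30.2% for plasma carriers and 28.5% for fibrinogen genes, below the share of all broad regions, and 40.0% for apolipoproteins and 46.8% for serpins, above it. For serpins and fibrinogen genes these bases came almost wholly from E2A replicate 2, with 45.9% and 28.5% against 2.44% and 2.52% in replicate 1. Most of the serpin bases under E2A lay in the *Serpina3k* and *Serpina4-ps1* regions. Plasma carriers had 22.2% in replicate 1 and 17.4% in replicate 2, and apolipoproteins 25% and 33.0%.

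Genes of glucose metabolism had a larger E2A share than all broad regions in both replicates, in replicate 2 mainly through *Pck1*. E2A replicate 2 peaks covered 78.0% of the body of *Pck1* and 5.61% of that of *G6pc*. Glucose metabolism had 5 of 25, among them *Pck1*, *G6pc*, *Fbp1* and *Ppp1r3b*, with 72.6% of bases under E2A of either replicate, 70.4% in replicate 1 and 33.2% in replicate 2. Among the lists only the albumin family had a larger share for either replicate, 85.8%. *Fbp1* (fructose bisphosphatase, 1685 bp, 26.5% under E2A) and *Ppp1r3b* (a glycogen-targeting phosphatase subunit, 1670 bp, 25.2%) had less of it, and the region of 1776 bp upstream of *G6pc* had none. Amino acid and urea metabolism had 11 of 45 with 33.9% under E2A of either replicate, a share below that of all broad regions, and 30.9% in replicate 1 against 7.43% in replicate 2. *Tat* had 3 regions that together covered 89.3% of its gene, with E2A replicate 1 on 2998, 2250 and 2046 bp of them and E2A replicate 2 on 672 bp of 1 region. *Gnmt*, glycine N-methyltransferase, also had 3, and *Glul* (glutamine synthetase), *Cps1* (the entry enzyme of the urea cycle, 3257 bp) and *Arg1* (arginase, 1744 bp, with 1416 and 1744 bp of GR and no E2A peak) had 1 each.

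Of 25 genes listed as glucocorticoid targets, 7 had a broad region, with 58.2% of bases under E2A in replicate 1, 46.9% in replicate 2 and 69.5% in either: *Errfi1*, *Pck1*, *Tat*, *Klf9*, *Dusp1*, *Gadd45g* and *Cps1*. They were not alike, and most of the bases under E2A replicate 2 lay in the *Errfi1* and *Pck1* regions. The 1976-bp region over 95.1% of *Gadd45g*, a stress-induced gene, was called in GR replicate 2 alone with no E2A peak, and that upstream of *Klf9* had 696 and 830 bp of E2A in replicates 1 and 2 within its shared stretch. Iron and heme genes had 6 of 17, with 49.9% under E2A of either replicate (19.9% in replicate 1 and 37.3% in replicate 2). Most of their bases under E2A replicate 2 lay in the *Alas1* region. Lower shares than that of all broad regions were found for liver transcription factors (16 of 57 genes, 29.6% for either replicate, 18.8% and 19.4% in replicates 1 and 2), cytochrome P450 genes (9 of 42, 29.8%, 18.9% and 18.7%) and lipid metabolism (8 of 63, 21.1%, 7.06% and 18.4%). Conjugating and other xenobiotic enzymes had 11 of 46, with 15.0% for either replicate (4.49% and 14.3%), the smallest share among these lists. At *Gstp1* (1897 bp), *Cat* (1970 bp), *Keg1* (2397 bp) and *Adh1* (1568 bp) no E2A peak was found.

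Among the transcription factor genes, *Cebpa*, which encodes a C/EBP factor of hepatocyte identity, was contained whole in 5076 bp, with 2637 and 5076 bp of GR and 433 and 1599 bp of E2A. *Id3*, whose product binds E proteins and keeps them off DNA, was contained whole in 3055 bp, with 251 and 3055 bp of GR and 459 and 539 bp of E2A. *Id2*, of the same family, had 2 regions of 2524 and 1808 bp. The former had no E2A peak and the latter 803 bp of E2A replicate 2. *Onecut1* (HNF6), *Bcl6*, *Foxa2*, *Foxo3*, *Ppara*, *Rxra*, *Nr0b2*, *Tef*, *Klf13*, *Klf15* and *Xbp1* completed the list together with *Klf9* and *Bhlhe40*. Genes of very abundant transcripts used as a further group had 5 of 18, among them *Malat1*, *Mir122*, *Eef1a1* and *Hspa8*, with 34.0% under E2A of either replicate (22.0% and 21.8%). Over all lists, 147 of the 247 regions had a listed gene and 100 had none.

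Many regions lay in runs. At a distance of at most 100 kb, 128 regions formed 49 runs of 2 or more, and 46 genes had 2 or more regions. Runs among the other GR regions were not counted. Many runs were neighbouring pieces at 1 gene, such as the 3 regions over 7274 bp at *Mir122*. Runs of 4 or more numbered 5. The alpha-1-antitrypsin cluster on chromosome 12 had 7 regions over 96691 bp, 4 of them from GR replicate 2 alone. The fibrinogen locus on chromosome 3 had 6 regions over 42698 bp, and together they covered 80.5% of *Fgg*, 49.2% of *Fga* and 90.3% of *Fgb*. All 6 had a peak of E2A replicate 2 and 1 had a peak of replicate 1. The *Ces3a* and *Ces3b* locus on chromosome 8 had 6, and the *Apoa1*, *Apoc3* and *Apoa5* locus on chromosome 9 had 4, all called in both GR replicates and all with E2A replicate 1.

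The run with the most regions was of another kind. It comprised 8 regions over 131652 bp of chromosome 5 next to *Gm21190* and *LOC105242399*, gene models that were singled out after their values were seen. All 8 were called in GR replicate 2 and in E2A replicate 2, none in replicate 1 of either factor, and 71.3% of their bases were under E2A replicate 2. They were kept in every count above. In the remaining 239 regions E2A replicate 2 covered 25.8% of the bases, replicate 1 21.1% and either replicate 36.1%.

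The limit of 1500 bp cut through a continuous range of widths. Just inside lay *Cyp4a32* and *Zfp445* (1502 bp each), *Cyp2d22* (1504 bp), *Nat8f2* (1506 bp) and *Kdm6b* (1511 bp, tied with a region at *Hpx*). Just outside lay *Zfp36l2*, 1 bp short of the limit, and *Snord104* (1497 bp), *Gapdh* (1496 bp) and *Agpat2* (1493 bp). At *Cyp2d22* the widest GR replicate 1 peak was 1504 bp and the widest replicate 2 peak 404 bp, the reverse of the usual case.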

How the data were processed

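The deposited tables list called peaks, 1 table per sample, with positions and widths in bp and a nearest gene. They hold neither read counts nor peak heights, and the depth behind each call is therefore unknown. Per the study's methods and processing notes, the authors mapped reads with BWA 0.7.13 (build mm10), removed duplicates with Picard, kept uniquely mapped pairs, downsampled each ChIP to a fixed number of pairs and ran MACS2 on each sample separately. The processing notes give MACS2 2.1.0, and the methods name other releases of MACS2 and Picard than the notes. The threshold and control library are not given in the sources used here. Positions are 1-based with the end included.

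Peaks of both GR replicates sharing 1 bp were merged, and regions of 1500 bp or more kept. When peaks of a region had several nearest genes, that with the largest share of its body inside named it. Gene starts, ends and exons came from GENCODE vM21 protein-coding genes. Shares carry 95% Wilson intervals. Interval and motif functions were tested on simulated data against base-by-base counts (Python 3.11.15, pandas 2.3.3, pysam 0.24.0).

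The members and gene lists were chosen with earlier results of these data known. Text names the 30 widest regions, listed genes and those next to the limit. Alternatives were the width limit, merging distance, each replicate left out, bases of both GR replicates, other E2A overlap rules, all gene biotypes and 1 motif mismatch. Control libraries were not analysed here. Some genes are not reported here by name, and they stay in every count.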

Additional observations from a re-analysis of the deposited data

How the results depend on the processing

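Of 64 values recomputed for 8 results under 13 settings, 38 stayed within the spread set for their result and 26 did not. The spread was a fixed fold range for the number of regions and the Wilson interval for shares of regions. For the E2A share of bases it was the SD over the E2A replicates. For gene-body bases and GRE density it was the SD of the values with 1 GR replicate left out, which are themselves among those judged. The split is therefore not a single measure of stability. The number of regions was 556 at 1000 bp, 148 at 2000 bp and 26 on bases called in both GR replicates, and 41 to 222 with 1 GR replicate left out. An E2A peak was then present in 63.5%, 81.1% and 96.2%, in 90.2% without GR replicate 2, in 51.0% to 56.3% with 1 E2A replicate left out, in 26.7% if it must cover 50% or more of the region and in 28.7% if it must cover the middle base. On bases called in both GR replicates, the E2A share of bases was 65.0%, gene starts were in 53.8%, gene bodies held 64.3% of bases, GRE cores reached 0.0444 per kb and both replicates were present in 100% by construction. With 1 GR replicate left out, the E2A share of bases was 23.6% to 54.6%, gene bodies held 62.9% to 71.3%, whole genes lay in 4.88% to 9.46% and GRE cores numbered 0.0288 to 0.0417 per kb. Whole genes lay in 3.78% at 1000 bp and 13.5% at 2000 bp, GRE cores reached 0.0401 per kb at 1000 bp, gene starts of all biotypes were in 55.1%, and 0.437 cores per kb were found with 1 mismatch. Sharing of both GR replicates has no value with 1 of them left out. Leaving out the run of 8 regions on chromosome 5, an alternative chosen after seeing the data, kept 239 of 247 regions. This moved none of the 8 results beyond the spread, which so small a change could hardly do. With 1 E2A replicate left out, the E2A share of bases was 20.6% to 27.0%. No paired analysis was possible because no result comes from a test. The cause of these shifts was not tested. Peak tables without read counts limit what can be said: GR replicate 2 gave the width of most regions, and whether the bases between pieces in GR replicate 1 fell short of its calling threshold cannot be seen from the calls.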
